A study of Mus musculus with 11 samples.

Results

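The epithelial sodium channel and its mineralocorticoid control are represented here by 9 genes, chosen by name for their roles, with earlier results of these data known. They are the 3 subunits of the epithelial sodium channel (ENaC) Scnn1a, Scnn1b and Scnn1g, the kinase Sgk1, the ubiquitin ligase Nedd4l, the channel-activating protease Prss8, the mineralocorticoid receptor Nr3c2, the steroid-inactivating enzyme Hsd11b2 and the colonic proton-potassium pump subunit Atp12a. They are 9 of the 43346 genes in the deposited count table, and all 9 passed the low-expression filter, which kept 19863 genes. Scnn1g and Atp12a passed it only through their germ-free counts. Colonic polyA RNA was sequenced from 5 germ-free mice and 6 humanized mice, all male Swiss Webster mice aged 8 to 10 weeks and singly housed in isolators. Germ-free mice carried no microbes, whereas humanized mice were germ-free until they were gavaged at 4 to 5 weeks of age with 300 μL of stool suspension, then left for 4 to 5 weeks before tissue was taken. All humanized mice received stool of 1 human donor, so the group represents 1 community rather than human microbiota in general. The segment of the colon and the layers of its wall that were sampled are not given in the sources used here.

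ENaC is a channel in the apical membrane of absorptive epithelial cells, assembled from an alpha, a beta and a gamma subunit encoded by Scnn1a, Scnn1b and Scnn1g, and in the distal colon it carries the sodium that the hormone aldosterone causes the body to retain. Aldosterone binds the mineralocorticoid receptor, a transcription factor that induces Sgk1, whose kinase phosphorylates the ubiquitin ligase Nedd4-2 (Nedd4l) and so keeps the channel at the cell surface. Glucocorticoids bind the same receptor, and 11β-hydroxysteroid dehydrogenase 2 (Hsd11b2) inactivates them in aldosterone-responsive cells.

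The promoters of the genes on which the results turn are shown so that the sequence in front of each start site can be read beside its expression. RefSeq promoter windows on GRCm38.p6, from 250 bases before a transcript's start to 50 bases after it, were matched for 4 of the 9 genes (Scnn1b, Scnn1g, Nr3c2 and Sgk1). All are on the plus strand and are written 5′ to 3′. Capitals mark matches, on either strand, to the GC box GGGCGG, the TATA box TATAAA and the corticosteroid receptor half-site AGAACA. They also mark the full element, AGAACA and its inverted copy TGTTCT separated by 3 bases (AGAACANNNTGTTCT), which holds 2 of the half-site matches. The first is Scnn1g at chr7:121734229-121734528, the subunit gene that was lower in humanized mice, the next is Scnn1b at chr7:121864788-121865087, the neighboring subunit gene that was not called, and the last, at chr10:21993640-21993939, is 1 of 6 Sgk1 windows, picked because it holds the full element.

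Scnn1g promoter: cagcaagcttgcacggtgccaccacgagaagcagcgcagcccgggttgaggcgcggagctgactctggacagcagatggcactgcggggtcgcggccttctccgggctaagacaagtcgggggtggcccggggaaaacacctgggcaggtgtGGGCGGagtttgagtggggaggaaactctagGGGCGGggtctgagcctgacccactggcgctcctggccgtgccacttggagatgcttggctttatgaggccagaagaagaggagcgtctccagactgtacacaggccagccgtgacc

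Scnn1b promoter: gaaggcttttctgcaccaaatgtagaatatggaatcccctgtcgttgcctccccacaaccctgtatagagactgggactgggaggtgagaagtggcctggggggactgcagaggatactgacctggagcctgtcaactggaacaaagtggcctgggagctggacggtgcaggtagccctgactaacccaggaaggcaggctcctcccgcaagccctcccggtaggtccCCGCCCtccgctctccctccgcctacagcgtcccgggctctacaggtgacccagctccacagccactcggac

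Sgk1 promoter: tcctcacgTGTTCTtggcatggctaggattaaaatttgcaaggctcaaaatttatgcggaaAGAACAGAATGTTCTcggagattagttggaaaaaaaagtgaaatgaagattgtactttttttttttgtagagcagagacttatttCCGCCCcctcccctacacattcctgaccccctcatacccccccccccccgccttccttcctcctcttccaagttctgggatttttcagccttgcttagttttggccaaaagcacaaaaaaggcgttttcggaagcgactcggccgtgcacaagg

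The Sgk1 window held the full 15-base corticosteroid element at chr10:21993701-21993715, starting 189 bases before the transcript's start. The same element occurred in 3 of all 32851 promoter windows (0.0091%), and the other windows belonged to Gm35041, which was not tested, and Acnat2, which was not called (LFC -0.19, FDR = 0.517). Half-sites lay in 3 of the 6 Sgk1 windows and in 19.0% of all windows, and none lay in the windows of Scnn1g, Scnn1b or Nr3c2. The Scnn1g window had a GC content of 64.7% with 18 CpG dinucleotides and 2 GC boxes, and the Scnn1b window had 61.7%, 10 CpG and 1 GC box, beside medians of 52.7% and 7 CpG over all windows. GC boxes occurred in 35.7% of all windows. The letters describe these windows only, and no binding was measured.

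Of the 9 genes, 3 were lower in humanized mice at a false discovery rate (FDR) below 0.01, namely Scnn1g, Sgk1 and Atp12a, and 0 were higher. Scnn1g and Atp12a, at no more than 10 reads in any humanized mouse, passed the filter only through the group in which they are high and had to differ, so their calls are descriptions, and 1 of the other 7 genes (Sgk1) was called. Over all 19863 tested genes, 10.1% were lower, 9.2% were higher and 19.3% were called in either direction. The groups did not overlap in 2 of the 9 genes, Scnn1g and Sgk1, against 18.4% of all tested genes. The log2-fold change (LFC) of humanized over germ-free mice had a median of -0.0047 over the 9 genes and 0.01 over all tested genes. At an unadjusted p below 0.05, 2 genes stood higher (Scnn1b and Nedd4l). The share of all genes at that p was not computed. At an FDR below 0.05, which is stricter, 2780 of all 19863 tested genes were higher. The quasi-likelihood test and DESeq2 also called 0 of the 9 higher. Scnn1a, Nr3c2, Hsd11b2 and Prss8 had LFC values between -0.04 and 0.05 with TMM normalization. Fold changes and FDR values are from edgeR's exact test with Benjamini–Hochberg correction. Standard errors (SE) are approximate, computed from edgeR's quasi-likelihood test as its absolute LFC divided by the square root of its F statistic. Levels are TMM-normalized RPKM, reads scaled for gene length and library size, with SD over 5 germ-free mice (n = 5) or 6 humanized mice (n = 6).

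The 9 genes differed in level far more than most of them differed between groups. In germ-free mice the order of mean RPKM was Hsd11b2, Sgk1, Nr3c2, Prss8, Scnn1a, Nedd4l, Scnn1b, Scnn1g and Atp12a. The ranges of the mice overlapped between Nr3c2 and Prss8, between Scnn1a and Nedd4l, and between Scnn1g and Atp12a, and the other neighbors in this order did not overlap. In humanized mice Nedd4l stood before Scnn1a and the order was otherwise the same, and the range of Sgk1 now overlapped that of Nr3c2. Levels of Nedd4l depend on its deposited length, since the exons of the GENCODE annotation of GRCm38 span 2.05 times as many bases, whereas deposited and annotated lengths were equal for 5 of the 9 genes. Fold changes do not depend on the length.

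**Figure D1:**
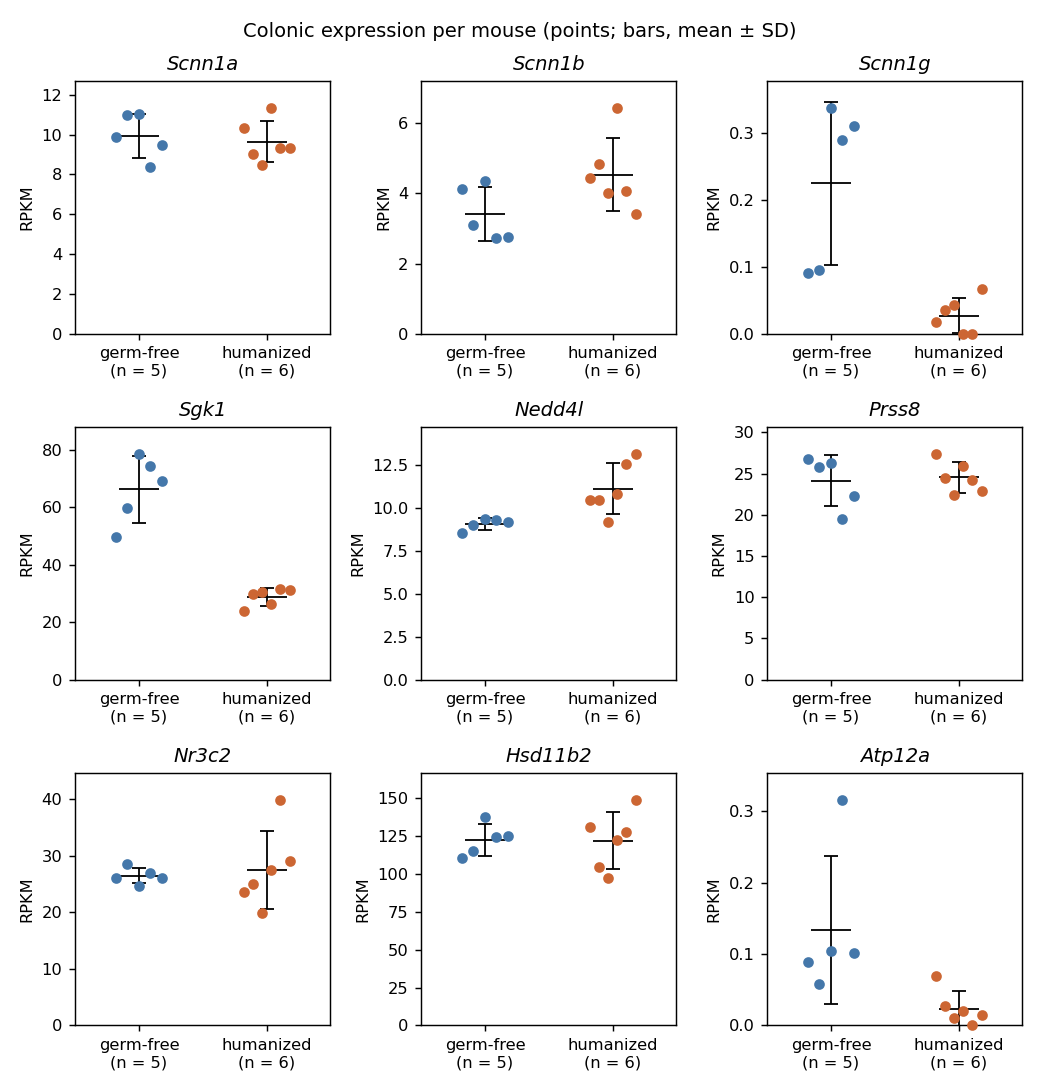
RPKM of the 9 genes (y axis, each panel with its own linear scale from 0) in each germ-free mouse (blue, n = 5) and humanized mouse (orange, n = 6), with bars at the mean ± SD. Scnn1g and Sgk1 are the panels in which the groups are fully separate, and 1 germ-free mouse at 0.316 RPKM stands above the others for Atp12a.

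Scnn1g (ENSMUSG00000000216, chr7:121734479-121768475 on mm10), the gamma subunit of the channel, was 7.91-fold higher on average in germ-free mice. Germ-free mice 1 to 5 had 0.0901, 0.0958, 0.337, 0.289 and 0.311 RPKM (0.225 ± 0.121), and humanized mice had 0 RPKM at the lowest, 0.0271 at the median and 0.0667 at the highest (0.0272 ± 0.0262). The lowest germ-free mouse was above the highest humanized mouse, and the germ-free mice themselves formed a low pair (mice 1 and 2) and a higher group of 3. Scnn1g fell by 2.98 on the log2 scale (SE 0.65, FDR = 6.16e-05), a description, since it passed the filter only through its germ-free counts. These values rest on few reads, 210 in all germ-free mice (15 to 65 per mouse) and 22 in all humanized mice (0 to 10 per mouse). Humanized mice 4 and 5 had 0 reads, where 3 reads would have been 0.0258 and 0.0211 RPKM, so the counts of 0 do not exclude levels up to those.

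The alpha and beta subunit genes did not share this difference. Scnn1a (ENSMUSG00000030340, chr6:125320659-125344943), which encodes the subunit that the channel needs for assembly, had 9.86, 10.98, 11.01, 8.38 and 9.47 RPKM in germ-free mice 1 to 5 (9.94 ± 1.11). Humanized mice ranged from 8.47 through a median of 9.33 to 11.3 RPKM (9.64 ± 1.02). The groups overlapped almost entirely (LFC -0.04, SE 0.09, FDR = 0.796). When libraries were scaled to epithelial marker genes, the LFC of Scnn1a was -0.28 (FDR = 0.0786). Scnn1b (ENSMUSG00000030873, chr7:121865111-121918515), the beta subunit gene beside Scnn1g on the chromosome, had 4.12, 3.10, 4.35, 2.73 and 2.76 RPKM in germ-free mice (3.41 ± 0.769). In humanized mice it ranged from 3.41 through 4.26 to 6.42 RPKM (4.53 ± 1.04). Its mean was above that of germ-free mice, but the groups overlapped and it was not called (LFC 0.41, SE 0.18, FDR = 0.115). With epithelial scaling the LFC of Scnn1b was 0.17 (FDR = 0.649).

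Ratios between subunits within each mouse do not depend on how the libraries are scaled. Scnn1g stood at 0.873% to 3.45% of Scnn1a in germ-free mice and at 0% to 0.717% in humanized mice, with no overlap. On the log2 scale this ratio fell by 3.33 in humanized mice, which is a description, since Scnn1g passed the filter only through its germ-free counts. The size depends on the 0.5 counts added to each gene, and with 2 counts added the ratio fell by 2.47. Scnn1b stood at 28.2% to 41.8% of Scnn1a in germ-free mice and at 36.6% to 56.7% in humanized mice. This ratio was higher in humanized mice by 0.45 on the log2 scale (two-sided exact permutation test over the 462 splits of the mice, p = 0.0195, adjusted p = 0.0390 over the 4 ratios without Scnn1g), although the ranges overlapped. The mean of Scnn1b was 15.2 times that of Scnn1g in germ-free mice and 167 times in humanized mice, and their log2 ratio differed by 3.78, or by 2.93 with 2 counts added. That difference is likewise a description, and it carries the counting error of the 22 humanized Scnn1g reads.

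**Figure D2:**
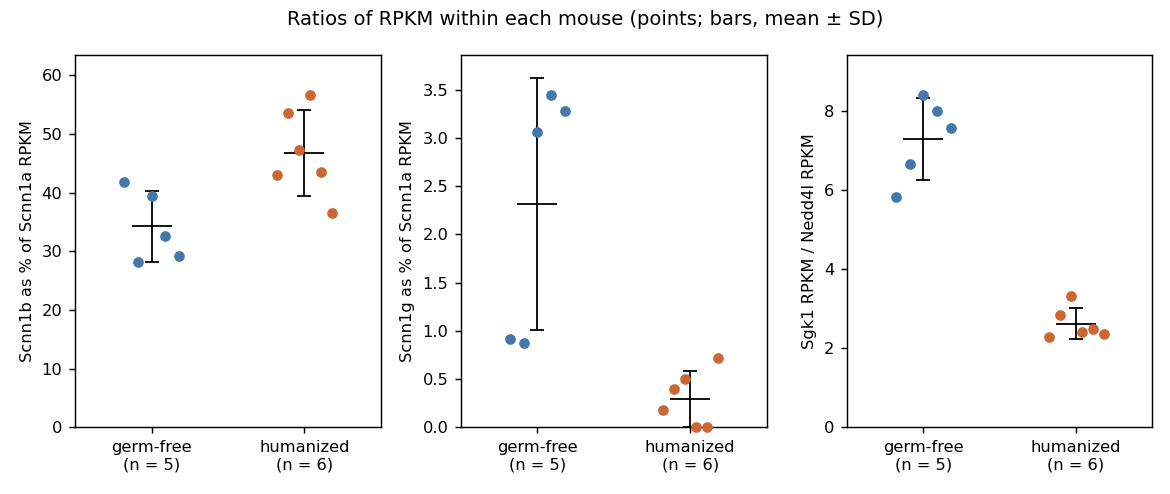
Ratios of RPKM within each mouse: Scnn1b and Scnn1g as a percent of Scnn1a, and Sgk1 divided by Nedd4l (y axes, linear from 0), in germ-free mice (blue, n = 5) and humanized mice (orange, n = 6), with bars at the mean ± SD. The groups overlap for Scnn1b (28.2% to 41.8% against 36.6% to 56.7%) and are separate in the other panels.

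Sgk1 (ENSMUSG00000019970, chr10:21882184-21999903), the kinase induced by corticosteroids whose promoter is shown above, was the abundant member of the 3 genes that were lower. Germ-free mice 1 to 5 had 49.8, 59.6, 78.6, 74.3 and 69.1 RPKM (66.3 ± 11.6), and humanized mice ranged from 23.99 through a median of 30.0 to 31.4 RPKM (28.8 ± 3.01). All germ-free mice were above all humanized mice, and the mean was 2.30-fold higher in germ-free mice. Sgk1 fell by 1.20 on the log2 scale (SE 0.12, FDR = 5.47e-20), from 15294 to 23699 reads per germ-free mouse to 4319 to 7638 per humanized mouse. Its mean lay at percentile 96.1 of the tested genes in germ-free mice and at 88.3 in humanized mice. In its exact permutation test p was 0.00216, which is the smallest p that 5 against 6 mice can give.

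Nedd4l (ENSMUSG00000024589, chr18:64887756-65217826), which encodes the ubiquitin ligase that removes the channel from the membrane and is a substrate of the Sgk1 kinase, was not called. Germ-free mice lay close together, at 8.52, 8.96, 9.33, 9.27 and 9.15 RPKM (9.05 ± 0.327), and humanized mice ranged from 9.16 through 10.6 to 13.1 RPKM (11.1 ± 1.48). The groups overlapped through humanized mouse 3, the lowest of its group. The LFC was 0.29 (SE 0.08, FDR = 0.0108), it was 0.34 with FDR = 6.27e-04 without humanized mouse 3, and it was 0.05 with FDR = 0.746 when libraries were scaled to epithelial marker genes. The ratio of Sgk1 to Nedd4l was 5.84 to 8.42 in germ-free mice and 2.29 to 3.32 in humanized mice. The ratio was 2.78-fold higher in germ-free mice, with no overlap (exact permutation p = 0.00216, adjusted p = 0.00866).

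**Figure D3:**
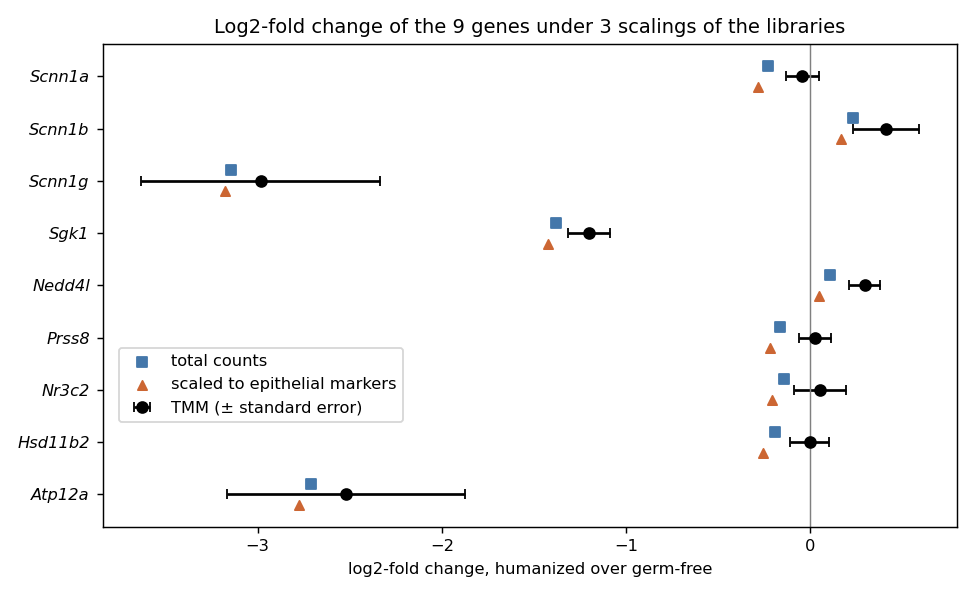
LFC of humanized over germ-free mice (x axis) for each of the 9 genes with TMM normalization (black, ± SE), with total counts (blue squares) and with libraries scaled to 11 epithelial marker genes (orange triangles). Scnn1g, Sgk1 and Atp12a lie below -1 under each scaling, and Prss8 and Nr3c2 change sign between TMM and the other scalings.

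Prss8 (ENSMUSG00000030800, chr7:127925725-127930113) encodes prostasin, a membrane-anchored serine protease that activates the channel by cleavage of its gamma subunit. It had 26.8, 25.8, 26.2, 19.5 and 22.3 RPKM in germ-free mice (24.1 ± 3.11) and 22.4, 24.3 and 27.4 RPKM as the lowest, median and highest of humanized mice (24.6 ± 1.87). The groups overlapped, with LFC 0.02 under TMM (SE 0.09, FDR = 0.891), -0.16 with total counts and -0.22 with epithelial scaling, and it was called under none of these. Exons of Kat8 on the opposite strand cover 6.59% of the exon bases of Prss8, and it is not stated whether reads were counted by strand.

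The receptor gene and its gatekeeper enzyme also overlapped between the groups. Nr3c2 (ENSMUSG00000031618, chr8:76899442-77245012) had 26.2, 28.5, 24.7, 27.0 and 26.2 RPKM in germ-free mice (26.5 ± 1.398) and ranged from 19.8 through 26.2 to 39.9 RPKM in humanized mice (27.5 ± 6.91). Its mean hardly differed, but humanized mice were more spread, with a coefficient of variation of 25.1% against 5.27%, and humanized mouse 5 was the highest. Over all tested genes the median coefficient of variation was 16.5% among humanized mice against 10.4%. The LFC of Nr3c2 was 0.05 (SE 0.14, FDR = 0.848), and it was -0.09 without humanized mouse 5, -0.15 with total counts and -0.21 with epithelial scaling. Nr3c1, the glucocorticoid receptor gene, stood at a similar level, with 27.8 ± 1.82 RPKM in germ-free and 30.2 ± 4.06 in humanized mice (LFC 0.12, FDR = 0.407), and the log2 ratio of Nr3c2 to Nr3c1 differed by -0.09 (exact permutation p = 0.344, adjusted p = 0.459).

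Hsd11b2 (ENSMUSG00000031891, chr8:105518746-105523984) had the highest level of the 9 genes in both groups, at percentile 98.2 of the tested genes in germ-free mice and at 97.7 in humanized mice. Germ-free mice had 110.8, 115.1, 137.7, 124.5 and 124.9 RPKM (123 ± 10.4), and humanized mice ranged from 97.3 through 125.3 to 149.2 RPKM (122 ± 18.8). Humanized mice held both the lowest and the highest value, and the LFC was -0.0047 (SE 0.10, FDR = 0.986). With total counts the LFC was -0.19 (FDR = 0.110), and with epithelial scaling it was -0.26 (FDR = 0.0250). The log2 ratio of Hsd11b2 to Nr3c2 differed by -0.03 (exact permutation p = 0.835, adjusted p = 0.835).

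Atp12a (ENSMUSG00000022229, chr14:56365068-56388551) encodes the catalytic subunit of the non-gastric proton-potassium pump, which recovers potassium in the distal colon. Germ-free mice had 0.0883, 0.0580, 0.104, 0.316 and 0.101 RPKM (0.134 ± 0.104), and humanized mice had 0, 0.0173 and 0.0689 RPKM as the lowest, median and highest (0.0236 ± 0.0240). The highest humanized mouse was above the lowest germ-free mouse, and germ-free mouse 4 alone held 78 of the 164 reads of its group, against 22 reads in all humanized mice. Atp12a fell by 2.52 on the log2 scale (SE 0.64, FDR = 0.00104), a description, since it passed the filter only through its germ-free counts. Its LFC was -1.94 without germ-free mouse 4 (FDR = 0.00428) and -3.19 without humanized mouse 1 (FDR = 2.75e-05). It was not called by the quasi-likelihood test (FDR = 0.0116). An antisense gene, Gm10873, overlaps it, and 13.9% of its exon bases are shared with other genes.

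The wider pathway was read from 6 lists with 55 genes, of which 47 were tested, 4 were higher and 10 were lower in humanized mice, with a median LFC of -0.09, beside 9.2% higher and 10.1% lower over all tested genes. Another list holds 10 genes that corticosteroids are known to induce, and it was chosen with earlier results of these data known. Of these, 5 were lower and 0 were higher, and the median LFC was -0.37, beside 10.1% lower and a median of 0.01 over all tested genes. At an unadjusted p below 0.05 the counts were 6 and 0. The share of all genes at that p was not computed. At an FDR below 0.05, which is stricter, 2905 of all 19863 tested genes were lower. Per1, a clock gene that glucocorticoids also induce, fell from a mean of 18.3 to 8.84 RPKM (LFC -1.05, FDR = 1.79e-15), and the groups did not overlap. Tsc22d3, which encodes the glucocorticoid-induced leucine zipper, fell from 11.3 to 5.61 RPKM (LFC -1.01, FDR = 5.13e-09), also without overlap. Errfi1, a feedback inhibitor of the EGF receptor, fell from 40.1 to 23.5 RPKM (LFC -0.77, FDR = 2.13e-08), again without overlap. Fkbp5, a co-chaperone of the steroid receptors, fell from 45.8 to 34.7 RPKM (LFC -0.40, FDR = 0.00110), and the transcription factor gene Zbtb16, at about 1 RPKM or less, had an LFC of -1.68 (FDR = 0.00143). The other 5 genes were not called. They were Edn1 (LFC 0.39, FDR = 0.260), Ndrg2 (0.03, FDR = 0.833), Ddit4 (-0.05, FDR = 0.743), Klf9 (-0.27, FDR = 0.0425) and Usp2 (-0.34, FDR = 0.234). The count of 5 lower genes was 4 with the quasi-likelihood test, which did not call Zbtb16 (FDR = 0.0134), and 6 with epithelial scaling. Of all tested genes, 1999 were lower in the main comparison, 1298 with the quasi-likelihood test and 2810 with epithelial scaling.

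Of the genes that act on the channel protein itself, some were higher and some lower, beside 9.2% higher and 10.1% lower over all tested genes. In the list of channel turnover and kinases, 2 of 10 genes were higher and 0 were lower. At an unadjusted p below 0.05 these counts were 3 and 2, and the share of all genes at that p was not computed. With total counts 1 was higher and 2 were lower, beside 773 higher and 3609 lower of all 19863 tested genes. With epithelial scaling 1 was higher and 1 lower, beside 523 higher and 2810 lower. Sgk2, a kinase of the same family as Sgk1, rose from 14.6 to 25.4 RPKM (LFC 0.80, FDR = 5.22e-07) and was still higher with epithelial scaling (LFC 0.54, FDR = 1.23e-05). Ywhae, which encodes a 14-3-3 protein, had an LFC of 0.26 (FDR = 0.00248) but was not called under epithelial or total-count scaling. The 2 kinase genes Sgk1 and Sgk2 thus differed between the groups in opposite directions. Among 8 proteases and protease inhibitors, the membrane protease gene Tmprss4 was higher (LFC 0.32, FDR = 5.43e-04), again without a call under those scalings, and 2 were lower, Serpine2 (LFC -1.68, FDR = 6.97e-04), an inhibitor of serine proteases, and Plau (LFC -1.34, FDR = 0.00564), which encodes urokinase. Neither Serpine2 (FDR = 0.0101) nor Plau (FDR = 0.0239) was called by the quasi-likelihood test.

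Steroid-handling genes and transport partners were called at about the share of all tested genes (19.3%). Of 8 tested genes of corticosteroid receptors and steroid handling, Hsp90ab1, a chaperone of these receptors, was higher (LFC 0.39, FDR = 0.00379) and 0 were lower. The Hsp90ab1 call was lost under epithelial and total-count scaling and with the quasi-likelihood test. At an unadjusted p below 0.05, 2 stood higher and 2 lower, and the share of all genes at that p was not computed. The steroid synthesis genes Cyp11a1, Cyp11b1 and Cyp21a1 had at most 10, 0 and 4 reads in any mouse and were not tested. Of 8 tested sodium and potassium transport partners, 2 were lower, the potassium channel gene Kcnma1 (LFC -0.43, FDR = 0.00114) and the potassium channel subunit gene Kcne3 (LFC -0.47, FDR = 0.00238), which the quasi-likelihood test did not call (FDR = 0.0144). Atp4a and Atp4b, the gastric relatives of Atp12a and its partner subunit, had at most 8 and 2 reads and were not tested. Of 3 tested acid-sensing channels, which belong to the same superfamily as ENaC, Asic2 was lower (LFC -1.03, FDR = 0.00605). That call was lost with the quasi-likelihood test (FDR = 0.0192), with no expression filter and in 7 of 11 fits that left out 1 mouse.

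**Figure D4:**
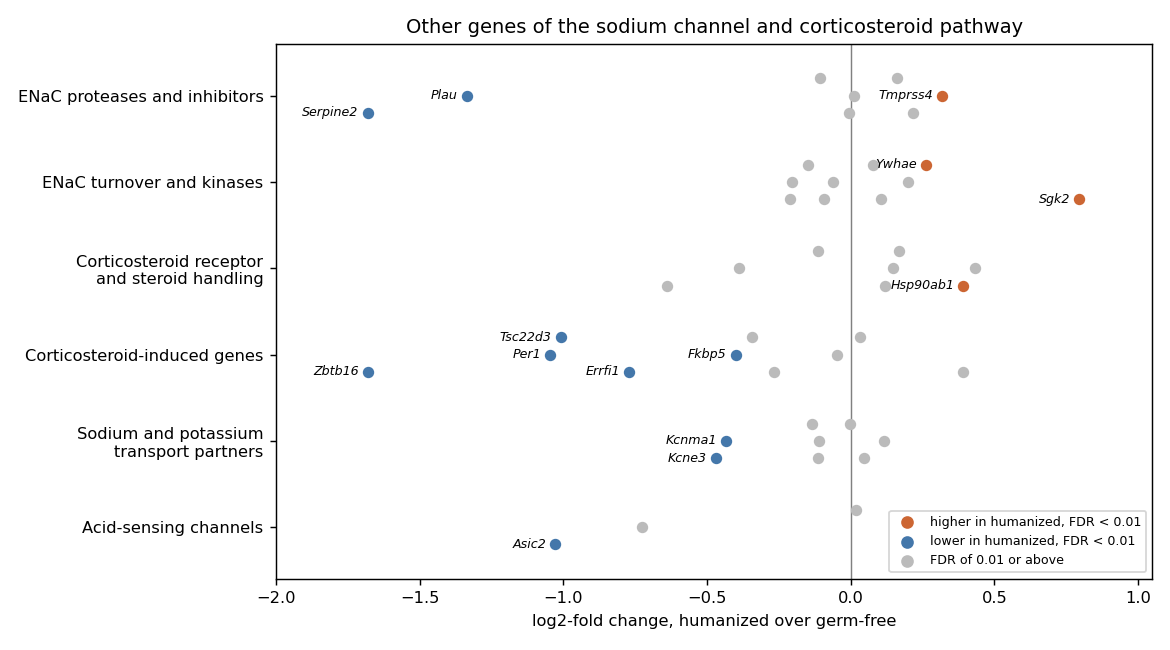
LFC of humanized over germ-free mice (x axis) for the 47 tested genes of the 6 pathway lists (rows), colored by the exact test at FDR below 0.01 (orange, higher; blue, lower; gray, not called). The corticosteroid-induced genes include 5 of the 10 genes called lower, and Sgk2 is farthest to the right.

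Other components of the tissue differed between the groups beside these results. Libraries held 49097005 to 64148538 reads on genes in germ-free and 39125290 to 54219854 in humanized mice. Of 9 smooth muscle markers (such as Acta2 and Myh11), 9 were lower in humanized mice, with a summed level of 317 to 947 RPKM in germ-free and 40.7 to 333 in humanized mice. Of 5 enteric neuron and glia markers (such as Sox10), 5 were lower, all without overlap (median LFC -2.33), with a summed level of 2.82 to 4.22 against 0.559 to 1.32 RPKM. Of 5 fibroblast markers (such as Col1a1 and Col3a1), 4 were lower (165 to 279 against 19.5 to 142 RPKM). Endothelial markers (such as Pecam1 and Cdh5) gave 0 calls of 4, with 3 lower at an unadjusted p below 0.05 (14.04 to 16.3 against 1.77 to 12.7 RPKM). The leukocyte markers (Ptprc, Cd3e and 5 others) summed to 86.1 to 128 against 111 to 721, with 3 of 7 higher, Cd3e among them and Ptprc not. Jchain alone rose from a mean of 32.0 to 295 RPKM, whereas Lyz2, Itgam and Adgre1 (LFC -0.67) were also not called, so the sum does not describe the list. Epithelial markers (such as Epcam and Cdh1), which mark the cells that carry the channel, were abundant in all mice, at 4334 to 5727 against 4860 to 6705.5 RPKM. Of these 11 markers 3 were higher, and 6 stood higher at an unadjusted p below 0.05, with a lowest LFC of 0.05. Absorptive surface colonocyte markers summed to 7551 to 9859 against 11551.5 to 18407 RPKM, with 2 of 6 higher, neither Slc26a3 nor Car4 among them. At an unadjusted p below 0.05, 4 of them stood higher and 1 lower.

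Of the distal hindgut Hox genes, which mark position along the colon, 3 of 5 had too few reads to be tested, among them Hoxb13 (at most 4 reads) and Hoxd13 (at most 9), and 1 of the 2 tested was lower. The summed level of the 2 tested Hox genes was 1.45 to 2.998 RPKM in germ-free and 0.137 to 1.30 in humanized mice, without overlap. Scnn1g and Atp12a, which are known from the distal colon, were lower in the same mice, and the part of colon position or of the muscle and nerve layers in the results for Scnn1g, Atp12a, Sgk1 and the corticosteroid-induced genes was not tested. In bulk tissue, fewer cells of a type and less RNA per cell cannot be told apart. Germ-free mouse 4 had the highest Hox, smooth muscle, fibroblast and endothelial sums of its group. Humanized mouse 5 had the lowest of its group in the same sums. The highest humanized Hox sum was in mouse 2, the highest fibroblast and endothelial sums in mouse 3, and the highest smooth muscle sum in mouse 6. Smooth muscle sums in germ-free mice 1 to 5 were 317, 416, 527, 947 and 396 RPKM, and the mouse with the lowest sum also had the lowest Sgk1 (mouse 1, 49.8), while mice 3 and 4 were highest in both (Sgk1 78.6 and 74.3). In humanized mice 1 to 6 the sums were 75.8, 100.2, 125.7, 133.3, 40.7 and 333 RPKM, and mouse 5, with the lowest sum, had the highest Sgk1 (31.4), followed by mouse 6 with the highest sum (31.1).

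**Figure D5:**
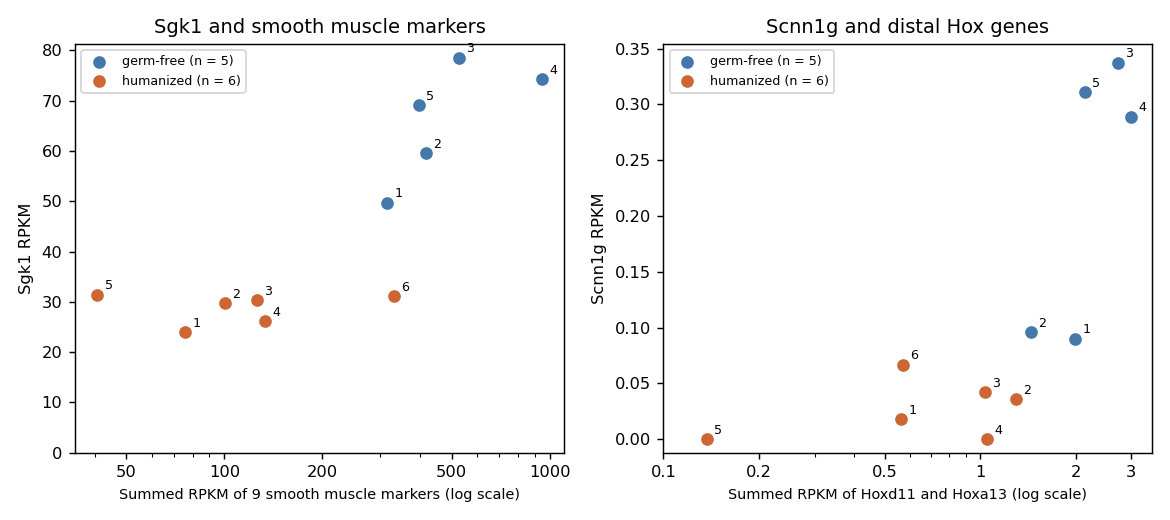
Left, Sgk1 RPKM (linear y axis) against the summed RPKM of 9 smooth muscle markers (log x axis), and right, Scnn1g RPKM against the summed RPKM of the 2 tested distal Hox genes (log x axis), with each point a numbered mouse (blue, germ-free, n = 5, and orange, humanized, n = 6). In the left panel the germ-free mice run from mouse 1 (sum 317, Sgk1 49.8) to mice 3 and 4 (527 and 947, Sgk1 78.6 and 74.3), and the humanized mice lie at 23.99 to 31.4 over sums from 40.7 to 333. In the right panel the groups are separate on both axes, and germ-free mice 1 and 2 are the lowest of their group on both.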

How the data were processed

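Per the submitters' processing notes, reads (101 bp, paired-end) were mapped to mm10 by TopHat2, version 2.1.0, which used Bowtie2, version 2.2.3, and were assigned to genes by featureCounts of Subread 1.4.6-p5. The authors deposited the raw counts of 43346 genes with positions and a coding length, which is equal to the annotated exon length for 5 of the 9 genes. Whether counting used strand is not stated. No reads were reprocessed here.

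Columns were assigned to groups by their labels. Counts were analyzed in R 4.3.3 with edgeR 4.0.16 and limma 3.58.1 as in the methods of the study: filterByExpr with default settings (at least 10 counts in enough mice and 15 in all), TMM, estimateDisp and the exact test over all 19863 genes, with Benjamini–Hochberg correction and FDR below 0.01. RPKM used TMM-normalized libraries and the deposited lengths. Ratios between genes were log2 ratios of counts, with 0.5 added, compared by two-sided exact permutation over all 462 splits, where the smallest p is 0.00216, and adjusted over the 4 ratios without Scnn1g, which was set after seeing the data. The code was tested on simulated data. Alternatives were the quasi-likelihood test, DESeq2 1.42.0, other scalings (one to 11 epithelial markers), other filters, FDR below 0.05, leaving out each mouse and a replicate block. Adding 2 counts to the ratios and leaving out humanized mice 5 and 6 were chosen after seeing the data.

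No 2 mice of a group agreed within counting noise (mean chi-square per gene 21.5 to 132), so each was counted as 1 sample. The median depth was 56718640 counts in germ-free and 43784996.5 in humanized mice.

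The 9 genes and all gene lists were chosen with earlier results of these data known. All 9 genes are named. From each pathway list the text names genes at FDR below 0.01, at most 6 by absolute LFC, and genes of the ratios. The corticosteroid-induced genes that were not called are named as well. Marker lists are given by counts, with the first 2 names, and further leukocyte markers were named once their values were known. Genes most like Scnn1b, Scnn1g and Atp12a are the 3 of mean CPM at least 10 with the highest Pearson r of group-centered log2 CPM. Acnat2, Gm35041, Kat8, Gm10873 and the untested steroid, pump and Hox genes were picked once their values were known. Results of 1 neuron and glia marker and of 1 gene most like Scnn1b are not reported here, and the reported neuron and glia markers were set after seeing the data. Protein and channel activity were not analyzed here. Promoter sequences are RefSeq's.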

Additional observations from a re-analysis of the deposited data

Results flagged for a closer look

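The Atp12a level of germ-free mouse 4, 0.316 RPKM, stood far from the other germ-free mice, of which the next was at 0.104 RPKM. The gap was 0.822 of the range of the group, above the critical value of 0.71 for 5 samples. It was the only such value among 29 groups of values examined, where chance marks about 1 in 20. The same mouse had the highest summed smooth muscle level, 947 RPKM, and without it Atp12a fell by 1.94 on the log2 scale (FDR = 0.00428, edgeR's exact test).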

How the results depend on the processing

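Sgk1 was called lower under every alternative run. Scnn1g was called lower under all but the replicate block, and Atp12a under all but the block and the quasi-likelihood test (FDR = 0.0116). Scnn1g and Atp12a passed the default filter only through their germ-free counts, so their repeated calls are descriptions and add no support. With at least 10 counts required in every mouse, neither of those genes was tested, and 1 gene of the 9 (Sgk1) was lower. The causes of the changes below were not tested.

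Against 1827 genes higher and 1999 lower in the main comparison, the quasi-likelihood test gave 1298 lower, total counts 773 higher and 3609 lower, epithelial scaling 523 higher, and FDR below 0.05 gave 2780 higher. Of the pathway genes, 5 were lower with the quasi-likelihood test and 1 was higher with total counts or epithelial scaling, against 10 and 4. These scalings shifted the median LFC of all genes by -0.18 (total counts) and -0.23 (epithelial). LFC values near 0 changed sign: Nr3c2 to -0.15 with total counts, -0.21 with epithelial scaling and -0.15 without humanized mice 5 and 6, and Prss8 to -0.16, -0.22 and, with upper-quartile normalization, -0.014. FDR below 0.05 added 1 of the 9 genes as higher, Nedd4l.

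Mice with the same number are different animals, and their deviations from the group means correlated between -0.133 and 0.0910, so the numbers do not pair the mice. A replicate block on mice 1 to 5 with the quasi-likelihood test gave 1002 genes, 501 higher and 501 lower, 1 of the 9 genes (1 lower, Sgk1, FDR = 6.48e-04), 1 pathway gene higher and 3 lower, LFC -3.49 for Scnn1g (FDR = 0.0224), -2.44 for Atp12a (FDR = 0.0540) and -0.013 for Nr3c2.

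Leaving out 1 mouse at a time gave 2880 to 4411 genes at FDR below 0.01, 1336 to 2088 higher and 1486 to 2323 lower, 3 to 4 of the 9 genes (0 to 1 higher, Nedd4l without humanized mouse 3) and 2 to 5 pathway genes higher and 7 to 10 lower. LFC values ranged from -0.077 to 0.052 for Hsd11b2, -0.087 to 0.13 for Nr3c2, -0.043 to 0.064 for Prss8, -3.49 to -2.71 for Scnn1g and -3.19 to -1.94 for Atp12a, and the log2 ratio of Hsd11b2 to Nr3c2 from -0.095 to 0.066. Depth limits Scnn1g and Atp12a most, at 22 reads each over all humanized mice.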

Other observations

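For Scnn1b, Scnn1g and Atp12a, the genes whose log2 CPM varied most alike within the groups are given as a description. The points are 11 mice that share library, depth and tissue makeup with each gene, and 10385 genes were compared, from which the highest r values were picked. For Scnn1b these included Hpd (r = 0.916) and Zfp398 (r = 0.876). For Scnn1g they were Capg (r = 0.912), Cenpa (r = 0.910) and Ncbp2 (r = 0.888), and for Atp12a 6230400D17Rik (r = 0.924), Bms1 (r = 0.895) and Srbd1 (r = 0.891). Scnn1g and Atp12a had 22 reads each over the humanized mice.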
